A study of Mus musculus with 16 samples.

Results

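Regions of H3K9Ac, acetylation of lysine 9 on histone H3, were compared between undifferentiated and differentiated MC3T3-E1 cells, a mouse pre-osteoblast line that lays down mineralised matrix in culture. Every region of the 2 H3K9Ac lists was taken, 14975 regions in undifferentiated and 23671 in differentiated cells, or 38646 of the 314892 regions and peaks in the 14 lists of the series. An undifferentiated region that overlapped a differentiated one by at least 1 bp was called kept and one that did not was called lost. A differentiated region without an undifferentiated partner was called gained. The undifferentiated group was MC3T3-E1 cells in growth medium with serum, and the differentiated group was the same line after 15 days in medium to which ascorbic acid (50 µg/mL) and glycerol-2-phosphate (10 mM) were added. Both groups were at passage 5 to 12 and received ethanol vehicle for 3 h before chromatin immunoprecipitation and sequencing. Mineralised matrix was removed from the differentiated cultures by homogenisation and a sucrose cushion, a step the undifferentiated cells did not share. The same 2 states were also profiled for H4K5Ac, H3K4me1, H3K4me3 and H3K36me3 and for the transcription factors RUNX2 and C/EBPβ.

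Acetylation of histone H3 at lysine 9 loosens the contact between nucleosome and DNA and is read by bromodomain and YEATS-domain proteins. It is placed by the GCN5 and PCAF acetyltransferases, removed by histone deacetylases, and found at the promoters and enhancers of transcribed genes. In bone-forming cells RUNX2 and its partners recruit such enzymes to genes of the collagenous matrix and of mineralisation. H4K5Ac is an acetylation of active chromatin on histone H4, H3K4me1 is found at enhancers and beside promoters, H3K4me3 marks the start of active genes, and H3K36me3 is laid down over the body of genes as they are transcribed.

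There was 1 list for each antibody and state, made of regions merged over biological replicates, so no difference between the states had a replicate check and no p-value was computed. Intervals are exact Clopper-Pearson 95% intervals of a share and cover counting error only. Read depth is unknown, and the length of a list depends on depth and on the strength of the immunoprecipitation as well as on the chromatin, which cannot be told apart here. Promoters of osteoblast genes carried H3K9Ac in both states, with 21 and then 22 of 28 matrix and mineralisation genes and 24 and then 26 of 26 osteoblast transcription factors, against 49.2% and 52.5% of all genes. Runx2, Sp7, Col1a1 and Col1a2 were marked in both states. Bglap and Bglap2, which encode osteocalcin, a late osteoblast product, had no H3K9Ac region before or after differentiation. Their promoters also had no H4K5Ac or H3K4me3 before or after, and H3K36me3 covered 0% of their bodies both times. How well short reads align to Bglap and Bglap2 was not tested. Promoters of lineage markers were marked less often than those of all genes for muscle, at 0 and 0 of 12, for haematopoietic cells, at 0 and 1 of 12, for endothelium, at 1 and 2 of 9, for neural cells, at 1 and 3 of 12, and for adipocytes, at 1 and 2 of 12. Chondrocyte markers were near the share of all genes, at 6 of 12 in both states.

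Many gained regions held RUNX2 peaks, and the sequences of 6 such peaks are shown because they lie in gained regions nearest to genes of the matrix, of mineralisation and of TGFβ signalling. They are from mm9, plus strand, 201 bases each, with the RUNX motif TGTGGT or its reverse complement ACCACA in capitals.
Dmp1, chr5:104630588-104630788: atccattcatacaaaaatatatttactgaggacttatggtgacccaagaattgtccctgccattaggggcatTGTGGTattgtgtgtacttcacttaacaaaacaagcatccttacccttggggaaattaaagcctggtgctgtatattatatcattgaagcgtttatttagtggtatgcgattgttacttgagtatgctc
Ibsp, chr5:104684549-104684749: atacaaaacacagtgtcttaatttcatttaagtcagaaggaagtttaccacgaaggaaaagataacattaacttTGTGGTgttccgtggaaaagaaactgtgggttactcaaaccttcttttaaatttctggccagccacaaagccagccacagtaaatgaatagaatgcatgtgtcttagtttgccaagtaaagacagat
Mmp13, chr9:7242833-7243033: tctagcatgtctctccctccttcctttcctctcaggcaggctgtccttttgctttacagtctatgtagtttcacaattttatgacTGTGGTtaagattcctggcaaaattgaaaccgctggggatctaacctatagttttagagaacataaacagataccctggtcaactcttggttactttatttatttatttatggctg
Phospho1, chr11:95669743-95669943: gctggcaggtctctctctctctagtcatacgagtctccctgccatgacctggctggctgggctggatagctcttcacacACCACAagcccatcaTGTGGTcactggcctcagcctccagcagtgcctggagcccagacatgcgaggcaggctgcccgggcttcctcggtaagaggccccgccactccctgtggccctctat
Postn, chr3:54238602-54238802: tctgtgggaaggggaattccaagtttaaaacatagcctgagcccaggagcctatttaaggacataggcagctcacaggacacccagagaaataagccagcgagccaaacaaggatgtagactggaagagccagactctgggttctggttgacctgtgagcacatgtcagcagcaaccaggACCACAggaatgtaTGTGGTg
Tgfb2, chr1:188482608-188482808: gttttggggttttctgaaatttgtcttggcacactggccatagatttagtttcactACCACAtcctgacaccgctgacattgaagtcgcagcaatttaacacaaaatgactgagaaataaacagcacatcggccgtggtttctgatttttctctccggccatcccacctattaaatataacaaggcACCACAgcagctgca

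The Dmp1 peak lay 0.944 kb from the transcription start site (TSS) of the gene, and the Ibsp, Mmp13, Phospho1, Postn and Tgfb2 peaks were distal, at 43.5, 29.6, 16, 45.9 and 24.6 kb. The Dmp1 and Mmp13 peaks were in the undifferentiated RUNX2 list and not in the differentiated one, and the other 4 were in both lists. The Phospho1, Postn and Tgfb2 peaks each held 2 copies of the motif.

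Promoters differed in CpG content between the classes, and the 250 bases before the TSS of 4 regulators and matrix genes show the range. They are given 5′ to 3′ in the direction of transcription, from mm9, with every CG in capitals.
Runx2, minus strand, chr17:44871643-44871892: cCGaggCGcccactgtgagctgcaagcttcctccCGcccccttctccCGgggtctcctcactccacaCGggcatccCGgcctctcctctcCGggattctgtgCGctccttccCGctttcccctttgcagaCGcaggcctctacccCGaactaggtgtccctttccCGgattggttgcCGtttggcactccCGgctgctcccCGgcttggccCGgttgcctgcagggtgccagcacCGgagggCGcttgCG
Dlx3, plus strand, chr11:94981153-94981402: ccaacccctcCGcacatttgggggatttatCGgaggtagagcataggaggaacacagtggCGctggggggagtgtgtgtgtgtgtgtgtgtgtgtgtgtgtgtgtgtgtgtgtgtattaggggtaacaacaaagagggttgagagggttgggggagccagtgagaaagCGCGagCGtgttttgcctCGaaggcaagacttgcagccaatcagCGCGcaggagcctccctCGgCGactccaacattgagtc
Dmp1, plus strand, chr5:104631382-104631631: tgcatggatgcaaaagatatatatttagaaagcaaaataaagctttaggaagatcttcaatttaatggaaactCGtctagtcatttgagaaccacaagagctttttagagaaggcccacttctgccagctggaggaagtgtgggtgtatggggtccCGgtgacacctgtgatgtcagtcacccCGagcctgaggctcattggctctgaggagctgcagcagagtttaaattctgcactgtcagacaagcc
Tbx2, plus strand, chr11:85645803-85646052: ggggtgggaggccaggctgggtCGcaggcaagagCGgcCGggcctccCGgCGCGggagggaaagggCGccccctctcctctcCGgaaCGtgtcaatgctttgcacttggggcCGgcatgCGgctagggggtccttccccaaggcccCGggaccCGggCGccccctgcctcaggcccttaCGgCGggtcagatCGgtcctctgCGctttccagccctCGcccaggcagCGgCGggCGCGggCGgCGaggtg

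Runx2 lay in a kept region and its upstream sequence held 19 CG dinucleotides, with an observed over expected CpG ratio of 0.688. Dlx3, a homeobox regulator of osteoblasts, and Dmp1, an acidic matrix protein of osteoblasts and osteocytes, were in gained promoter regions and held 11 and 3 CGs. Tbx2, a T-box repressor, was in a lost region and held 25. The lost promoter of Tbx2 was thus as CpG-rich as the kept promoter of Runx2, with a ratio of 0.717, and the 2 gained promoters differed from each other, at 0.622 and 0.231.

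Nearly all H3K9Ac of the undifferentiated cells was still present after differentiation. Of the 14975 regions 14824 were kept (99%, interval 98.8 to 99.1) and 151 were lost (1.01%, 0.855 to 1.18). In the differentiated list 9116 of 23671 regions were gained (38.5%, 37.9 to 39.1). The length covered went from 52.6 to 86.5 Mb, a ratio of 1.65, and 96.2% of the bases covered before lay inside a region afterwards. Of the 35.9 Mb newly covered, 22.3 Mb lay in gained regions and 13.6 Mb (37.9%) in the flanks of kept ones. Other lists of the series changed differently. H4K5Ac kept 71.5% of its regions and 4.71% of its differentiated regions were gained, H3K4me1 kept 86.7% with 17.2% gained, and H3K4me3 kept 95.8% with 18.7% gained. RUNX2 and C/EBPβ kept 36.4% and 43.1% of their narrow peaks.

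The border between the classes was clear. The smallest overlap of a kept differentiated region was 158 bp and the next 831 bp, while the smallest gap between a gained region and the undifferentiated list was 862 bp and the next 1170 bp. The median gap of a gained region was 24528 bp, 26% of gained regions lay within 10 kb of an undifferentiated region and 13.8% lay beyond 100 kb. The nearest differentiated region was at a gap of 961 bp or more from each lost region, with a median of 18.2 kb.

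Column 5 of the lists is a score assigned by the authors, and it was used to rank the regions within each list, with 100 as the highest percentile. Gained regions lay low in the differentiated list, at a median rank percentile of 20.7 (quartiles 9.96 and 33.4), against 69.1 for kept regions. Below the rank percentile of 20 in the differentiated list 93% of regions were gained. From 20 to 40 the share was 70.2%, from 40 to 60 it was 26.7%, from 60 to 80 it was 2.54%, and above 80 it was 0.127%, or 6 of 4735 regions. Lost regions were likewise of low rank in the undifferentiated list, with a median of 11.3, and the lost share was 4.04% below the percentile of 20 and 0 of 2995 regions above 80, which allows up to 0.123% by the upper bound of the interval. The 5 best ranked kept regions of each list included those at Tnrc18 and Prrx1, a mesenchymal homeobox gene. The best ranked differentiated regions also included the promoter of Col1a1, which encodes the α1 chain of type I collagen, at 33.7 kb wide.

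**Figure D1:**
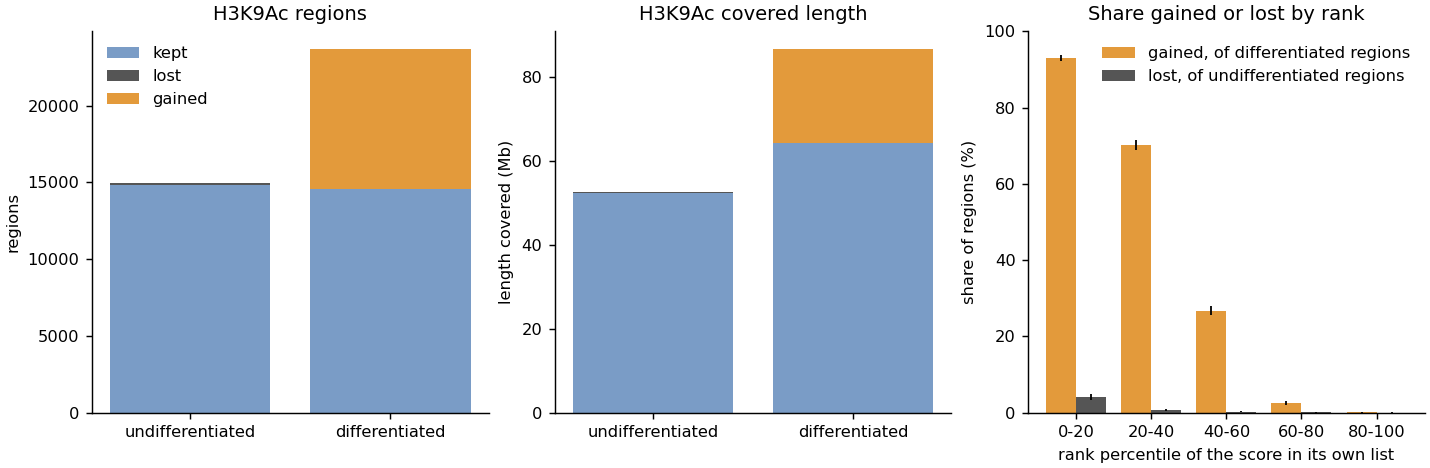
Bars give the number of H3K9Ac regions (left) and the length covered in Mb (middle) in the undifferentiated and differentiated list, split into kept, lost and gained, and the share of regions gained or lost by the score rank within the list in steps of 20 percentiles (right, in %, with exact 95% intervals). The lost part is barely visible at 151 regions, the gained part holds 9116, and the gained share is 93% in the lowest step and 0.127% in the highest.

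Because the differentiated list was longer, the comparison was repeated with its 14975 best ranked regions, as many as in the undifferentiated list. Then 1799 regions (12%) were gained and 13482 undifferentiated regions (90%) were kept, so 1493 undifferentiated regions had no partner. Most gained regions therefore ranked below the point at which the lists are of equal length, the rank percentile 36.7 of the differentiated list. The gained regions of Ibsp, Mmp13, Mepe and Dlx3 stayed in this shorter list, as did 1 of 2 at Alpl and Pth1r, 2 of 3 at Tgfb2, 1 of 3 at Tcf7 and 1 of 4 at Postn. At Dmp1 1 of 2 stayed and the gained promoter region did not, nor did those of Pthlh and Il11. None of the gained regions of Phospho1, Spp1, Wnt4, Plod2 or Loxl1 stayed.

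Kept regions were wider after differentiation. In the 14100 pairs matched 1 to 1 the median width went from 2883 to 3460 bp, with a median ratio of 1.16 (quartiles 1.05 and 1.34), and 11922 pairs (84.6%) were wider. A ratio of at least 2 was reached by 778 pairs, and 27 pairs were narrower by that factor. The share of pairs at least 2-fold wider was 3.32% at promoters, 10.9% within genes and 9.87% between genes. In addition, 322 differentiated regions each spanned 2 or more undifferentiated regions, up to 4, and 64 undifferentiated regions were split. The median ratio was also 1.16 in the shorter list of equal length. Cutting the list leaves the edges of the remaining regions as they were, so this value could hardly move. The part of read depth in the widening was not tested.

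The largest ratio, 9.71, was at a distal region nearest to Hif1a, the oxygen-regulated transcription factor, from 1.44 to 13.9 kb. A distal region near Thbs2, a matricellular thrombospondin of connective tissue, went from 1.17 to 10.6 kb, and one near Foxc2, a mesenchymal forkhead factor, from 1.27 to 9.79 kb. At the promoter of Tgm2, a transglutaminase that crosslinks matrix proteins, the region went from 1.91 to 15 kb, and at that of Hoxb7 from 2.1 to 15.7 kb. These regions were small in the undifferentiated list, where the narrowest width was 1001 bp. Narrowing was rarer. A distal region near Lphn2 went from 7.76 to 2.19 kb, one near Cldn14, a claudin, from 4.53 to 1.33 kb, and one near Sfrp1, a secreted Wnt antagonist, from 4.99 to 1.91 kb.

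**Figure D2:**
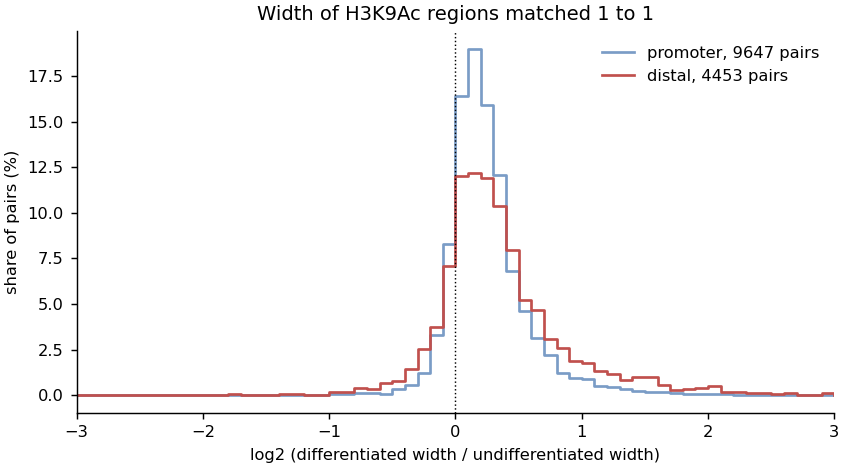
The x axis gives the log2 ratio of differentiated over undifferentiated width for H3K9Ac regions matched 1 to 1, and the y axis the share of pairs in %, for 9647 promoter pairs and for distal pairs. Both curves peak just right of 0, where the widths are equal, and the distal curve has the longer right tail.

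The widest domains were present in both states. A region at Sfi1 near the start of chromosome 11 measured 74.8 and 75.2 kb. It overlapped the lists of all the other histone marks in both states. The inputs were not analysed, so whether they also have high signal at Sfi1 was not tested. The Col1a2 promoter region was 41.2 kb wide in undifferentiated cells, and the Grb10 region, at an imprinted adaptor gene, went from 36.7 to 49.4 kb. The neighbouring gene Ddc had a 71.9-kb region after differentiation. Gained regions were narrower, with a median of 1932 bp against 3505 bp for kept differentiated regions and 1512 bp for lost ones. The widest gained region measured 33.1 kb with its edge 0.528 kb from Gm17544, and others among the 5 widest were 19.2 kb at Vgll4, a cofactor of TEAD factors, 17.3 kb within Scfd2 and 17 kb at Kirrel3.

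Gained regions were largely distal. A region was placed at a promoter when its edge lay within 1 kb of a TSS. Of the kept differentiated regions 68.4% (67.7 to 69.2) were at a promoter, 12.7% elsewhere within genes and 18.8% between genes. Of the gained regions 10.7% (10.1 to 11.4) were at a promoter, 40.8% within genes and 48.5% between genes, and of the 151 lost regions 19.2% (13.3 to 26.4) were at a promoter. The intervals of the kept and gained promoter shares did not overlap. Distal regions of the classes lay at like distances from the nearest TSS, with medians of 26 kb for kept, 27.5 kb for gained and 28.7 kb for lost regions. The gained share ranged from 34.5% on chromosome 7 to 43.6% on chromosome 12 among the autosomes and was 25.5% on the X chromosome, or 125 of 491 regions.

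Base composition followed these places. The median CpG ratio over whole regions was 0.494 for kept promoter regions and 0.305 for gained promoter regions, 0.245 and 0.219 for distal kept and gained regions, and 0.18 for distal H4K5Ac and H3K4me1 regions that had H3K9Ac in neither state. In the 500 bases to each side of the most upstream TSS a ratio of 0.6 or more was found for 76.8% of genes marked in both states, for 33.4% (30.1 to 36.9) of genes with a gained promoter region, for 40% (23.9 to 57.9) of those with a lost one and for 14.5% of genes marked in neither. The 4 upstream sequences above span this range, with Dmp1 among the CpG-poor promoters.

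Chromatin around the gained regions already carried 2 other active marks. Before differentiation 96.7% of gained regions overlapped H4K5Ac and 95.9% overlapped H3K4me1, and 93.9% (93.4 to 94.4) overlapped both. Afterwards the shares were 95.6% and 98.9%. The other classes were alike, as H4K5Ac and H3K4me1 before differentiation overlapped 99.1% and 98.3% of kept differentiated regions and 93.4% and 94.7% of lost ones. H4K5Ac covered 339.8 Mb and H3K4me1 341.7 Mb in undifferentiated cells, so these lists cover more of the genome than H3K9Ac. 123 gained regions (1.35%) overlapped neither mark before, and 84 of these overlapped H3K4me1 afterwards. H3K4me3 was nearly absent from gained regions, at 59 regions (0.647%) before and 19 (0.208%) after, whereas kept differentiated regions overlapped it in 47.4% and 55.2% of cases. Among the 976 gained promoter regions 15 overlapped H3K4me3 in differentiated cells.

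Peaks of RUNX2, the runt-domain factor required for bone formation, lay in 25.7% of gained regions before differentiation and 15.9% after, and peaks of C/EBPβ, a leucine zipper factor, in 26% and 18.4%. In kept differentiated regions the shares went from 37.5% to 17.8% and from 32.1% to 20.3%. Both factor lists were shorter after differentiation, with 12674 and 6272 RUNX2 peaks and 15622 and 10847 C/EBPβ peaks. A peak of either factor in either state was present in 44.8% (43.8 to 45.8) of gained and 53.6% (52.8 to 54.5) of kept differentiated regions. Among distal regions the shares were 46.7% and 66.4%. Over all places kept differentiated regions were wider, at a median of 3505 bp against 1932 bp for gained ones. The part of width in these shares was not tested. A RUNX2 peak that was absent before and present after was found in 3.09% of gained and 1.62% of kept regions. Of the gained regions, 12.9% held a RUNX2 peak before and not after and 12.8% held one in both states.

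**Figure D3:**
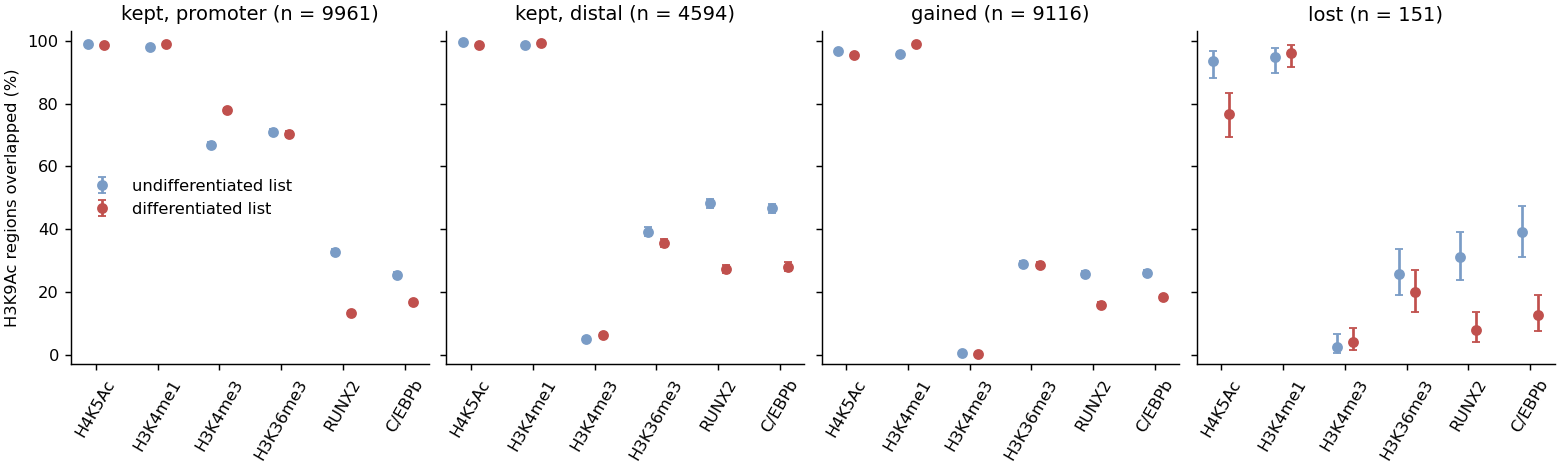
Points give the share of H3K9Ac regions (y axis, %) that overlapped each of the other lists (x axis) in the undifferentiated and differentiated state, with exact 95% intervals, for kept promoter, kept distal, gained and lost regions. Gained regions are at 95.6% or more for H4K5Ac and H3K4me1 in both states and near 0 for H3K4me3, and the RUNX2 and C/EBPβ shares are lower in the differentiated lists in each panel.

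The motif content of the factor peaks depended on the H3K9Ac class. The RUNX motif TGTGGT, on either strand, was present in 63.5% (1637 of 2578) of undifferentiated RUNX2 peaks in gained regions, against 51.1% in kept distal regions, 29.6% in kept promoter regions and 72.6% outside H3K9Ac in both states. Windows of the same width 1 kb to each side held it in 13.4% to 16.4% of cases. The 6 peaks printed above were required to hold it. For differentiated RUNX2 peaks the order was the same, at 67.6%, 58.3%, 37.7% and 75.1%. The C/EBP motif TTGCNNAA was present in 35% of undifferentiated C/EBPβ peaks in gained regions, 31% in kept distal, 35.7% in kept promoter regions and 51.8% outside H3K9Ac, against 8.1% to 8.95% in the windows beside them. In the central 300 bp of regions without regard to peaks the differences were small. TGTGGT was in 26.5% of gained distal centres and in 24.9% of centres of distal H4K5Ac and H3K4me1 regions that never had H3K9Ac, and the AP-1 motif TGANTCA was in 15.6% and 15.8%. A match describes the sequence and not binding.

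The H4K5Ac regions without H3K9Ac in undifferentiated cells were followed into the differentiated list. Of 22869 undifferentiated H4K5Ac regions that overlapped H3K4me1 and had no H3K9Ac, 24.8% overlapped an H3K9Ac region after differentiation. The share was 41.1% (39 to 43.3) at promoters and 23.2% (22.6 to 23.8) at distal places. Among the distal ones it was 51.1% (49.2 to 52.9) with a RUNX2 peak before and 18.8% (18.2 to 19.4) without, and 63.5% (60.7 to 66.2) where the RUNX2 peak was present in both states. With a C/EBPβ peak before it was 40.4% and without one 19.3%. Width moved with these shares. Regions with RUNX2 that acquired H3K9Ac had a median of 11822 bp and those that did not 6523 bp, and without RUNX2 the medians were 5060 and 3505 bp. The part of width in the RUNX2 difference was not tested.

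For genes, 22239 symbols of the GENCODE vM1 annotation on mm9 were used, almost all protein-coding. H3K9Ac was within 1 kb of a TSS for 10951 genes before and 11670 after differentiation. The promoter was marked in both states for 10916 genes, gained for 754 (3.39%) and lost for 35 (0.157%). A gained promoter came from a gained region in 679 genes and from a kept region that reached further in 75. The 10 gained promoter genes of best rank were all of the second kind and had no gained region assigned, among them Msh4, S100a5, Best1 and Hsd17b1, a steroid dehydrogenase. Of these, Hsd17b1 went from 10.3% to 100% of its body under H3K36me3. With the equal-length list 241 genes had a gained and 295 a lost promoter, so that lost promoters then outnumbered gained ones.

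Among promoters marked by a gained region, the best ranked one was shared by Dnajc7 and Nkiras2, on chromosome 11, at rank percentile 94.9. The next was shared by Bpnt1 and Iars2 on chromosome 1, at 92.5, and H3K36me3 already covered 92.1% of Iars2 before. Both regions overlapped H4K5Ac, H3K4me3 and H3K36me3 in both states. H3K36me3 covered 96.3% and 96.9% of Dnajc7, 45% and 44.1% of Nkiras2 and 77.8% and 95.6% of Bpnt1. Mmp28, a secreted metalloproteinase, had a gained region of rank 80.9 and 6.3 kb, and H3K36me3 covered 55.9% and 79.1% of it. Rad51c, rank 77, was at 96.6% and 97.5%. Fam180a, rank 75.1, went from 0 to 92% of its body under H3K36me3. Col11a1, which encodes a fibrillar collagen of cartilage and bone matrix, had a gained region of rank 73.3 and went from 0 to 63.3%. Olfml1, rank 72.6, went from 0 to 82.8%, while Kirrel3, rank 74.2, was at 0 in both states. These genes were picked by the rank of the gained region and not by H3K36me3.

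Across the class, H3K36me3 changed little. It covered on average 14.3% of the bodies of the 754 genes before and 15.1% after, against 71.2% and 71.3% for genes marked in both states. Coverage was higher by 50 points or more in 12 of the 754 (1.59%, against 0.544% of all genes). It was lower by that much in 7 (0.928%, against 0.639%). Of the 35 genes with a lost promoter region 4 were lower by 50 points or more (11.4%, against 0.639% of all genes) and 0 were higher by that much. The average of the 35 went from 17.3% to 7.55%. Seen from the other side, 121 genes had H3K36me3 coverage higher by 50 points or more. Of these 36.4% (27.8 to 45.6) had a gained H3K9Ac region, against 25.1% (24.2 to 26) of the 8674 genes with at least 50% coverage in both states and 21% of all genes, and 38% had at least 2-fold more H3K9Ac in the body and 10 kb around it, against 9.45% of the genes covered in both states and 12.4% of all genes. Of the 142 genes lower by 50 points 27.5% (20.3 to 35.6) had a gained region, and 12% had at least 2-fold more H3K9Ac, near the share of all genes.

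Each region was also assigned to the gene whose TSS was nearest to its midpoint within 100 kb, and the widths of the regions of a gene were summed. A gained region was assigned to 4675 genes (21%), of which 2928 had a promoter marked in both states. The summed length was at least 2-fold higher after differentiation for 3404 of 12125 genes (28.1%) and at least 2-fold lower for 332 (2.74%), with a median change of 1.1 kb. Of the 332 genes 294 had H3K9Ac at the promoter in both states, and 17 were also at least 2-fold lower in the body and 10 kb around it. A region that widens moves its midpoint, and Eef1g went from 20.7 kb to 0 while its neighbour Ahnak went from 14.5 to 55.6 kb. Ccdc85b went from 21.7 kb to 0 of assigned length beside Fosl1, from 0 to 7.1 kb, while H3K9Ac in the body and 10 kb around each of these 2 genes went from 21.7 to 17.2 kb.

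The 10 genes with the most gained regions had 8 to 12 each, counts that were not set against gene length. Bre, a subunit of deubiquitinase complexes, had 12 gained regions and went from 14.2 to 67.6 kb of assigned H3K9Ac, and its H3K36me3 coverage from 47.6% to 75.1%. Sept9, a septin, and Svil, an actin- and membrane-binding protein, had 11 each. Tbc1d1, a Rab GTPase-activating protein, had 10 and went from 5.08 to 64.8 kb. Bach2 and Lhfpl2 had 10, Fgfr2, a fibroblast growth factor receptor of the osteoblast lineage, 9, Rbm20 9, Tns1, a focal adhesion tensin, 9, and Akap13 8. H3K36me3 coverage of Tns1 went from 22.6% to 54.8%, that of Tbc1d1 was 56% and 53.6%.

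The largest increase in assigned length was at Vgll4, from 39.6 to 108.9 kb with 8 gained regions. Itgb5, the β5 integrin subunit, went from 18.4 to 66.1 kb, and Tns3 from 44.2 to 85.7 kb. Col24a1, a fibrillar collagen expressed in forming bone, went from 8.87 to 55.3 kb, and H3K36me3 from 24.5% to 84% of its body. Pappa2, a protease of insulin-like growth factor binding proteins, went from 91.4 to 131.9 kb. In the body and 10 kb around it, which does not depend on the nearest TSS, Vgll4 went from 31.8 to 69.9 kb, Itgb5 from 18.4 to 66.1 kb and Col24a1 from 5.6 to 46.5 kb. By that measure Bre, from 18.1 to 84.9 kb, increased by more than Vgll4. Fgfr2 went from 105.3 to 216.8 kb, but its annotated body here spans chr7:137305965-140315033. That sum therefore takes in H3K9Ac not assigned to Fgfr2, whose assigned length was 26.4 and 62.1 kb.

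Genes of the bone matrix and of mineralisation were described as a list of 28. Of these 18 had a gained region (64.3%, against 21% of all genes), with 40 gained regions and none lost. Of the 23 with assigned H3K9Ac 11 were at least 2-fold longer, against 28.1% of all genes with assigned H3K9Ac. The median change was 7.6 kb, against 1.1 kb over all genes. In the body and 10 kb around it 22 of 23 genes with H3K9Ac were longer, as were 12727 of 14005 among all genes. The sum over the list went from 252 to 407.4 kb, and over all genes from 69204 to 100847 kb. With the equal-length list 10 of the 28 (35.7%) had a gained region, against 5.28% of all genes.

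Ibsp, bone sialoprotein, had no assigned region before and a gained region of 5.87 kb at chr5:104679583-104685448, 42.7 kb from its TSS, after. H3K36me3 covered 0 and 86.5% of its body, and its promoter had no H3K9Ac in either state. Mmp13, the collagenase of bone and cartilage, was alike, with a gained region of 5.55 kb at chr9:7239011-7244564, 27.9 kb from its TSS, no H3K9Ac at the promoter and H3K36me3 of 0 and 90.3%. Both regions overlapped H4K5Ac and H3K4me1 in both states and hold the RUNX2 peaks printed above. Phospho1, the phosphatase of matrix vesicles, went from 1 to 3 regions, from 2.08 to 10.6 kb and from 0 to 61.1% H3K36me3.

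Other matrix genes had longer H3K9Ac with little change of H3K36me3. Alpl, the alkaline phosphatase of mineralising cells, went from 2 to 4 regions and from 8.08 to 34.8 kb with H3K36me3 at 0 in both states. Spp1, osteopontin, went from 17.6 to 34.8 kb with H3K36me3 at 90.4% and 96.1%. Postn, periostin, went from 10.4 to 33.3 kb, Col12a1 from 10.8 to 37.1 kb, Sparc, osteonectin, from 20.1 to 43.6 kb and Col5a1, a minor fibrillar collagen chain, from 27 to 52.1 kb with 5 and 12 regions. H3K36me3 covered at least 98.7% of Postn, Col12a1, Sparc and Col5a1 in both states. The genes for type I collagen were broad from the start, Col1a1 at 53.1 and 60.5 kb and Col1a2 at 72.6 and 77.6 kb. The 3 members with less assigned length were Dcn, decorin, from 41.2 to 35.5 kb, Omd, osteomodulin, from 9.57 to 8.98 kb and Lum, lumican, from 20.4 to 20.2 kb. In the body and 10 kb around it Dcn was longer, from 16.9 to 19.2 kb, as was Lum, from 8.12 to 8.51 kb, and Omd was again shorter. H3K36me3 on Omd went from 79.6% to 37.4%. Bglap, Bglap2, Phex and Enpp1 had no assigned region in either state.

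**Figure D4:**
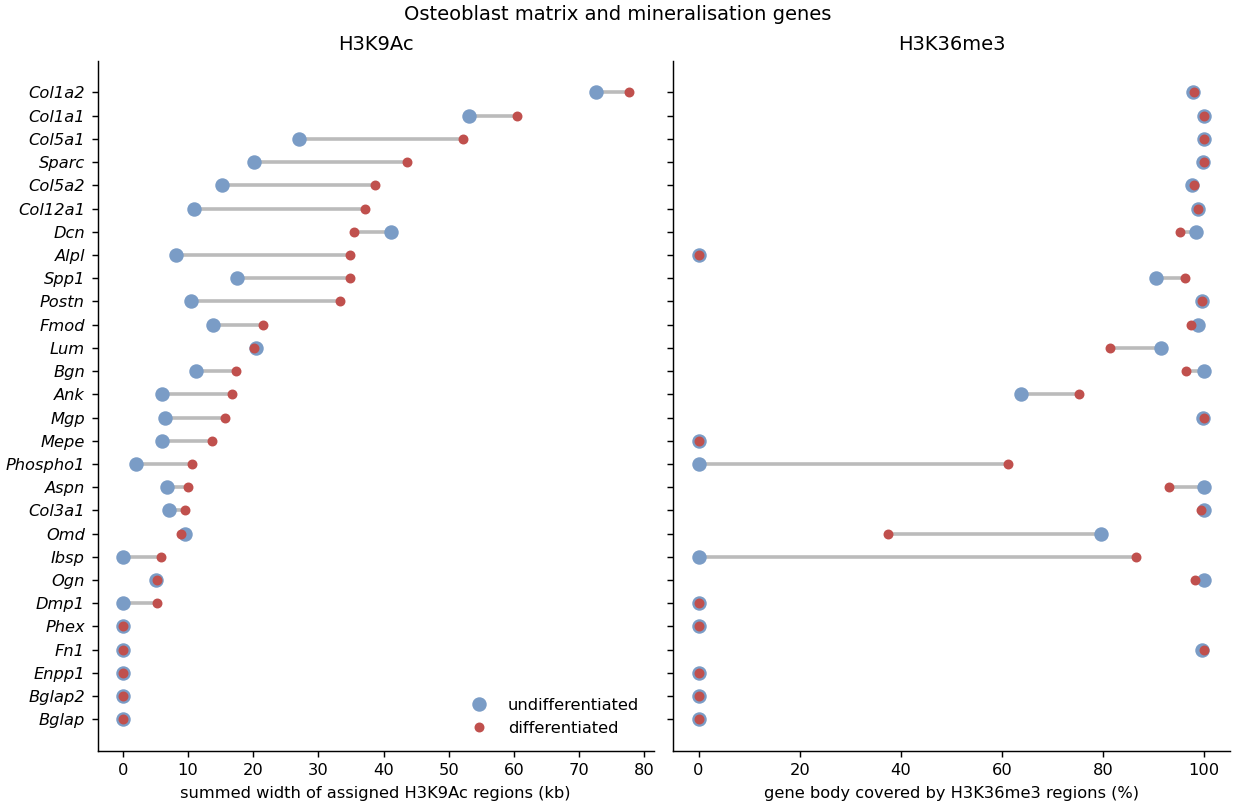
For the 28 osteoblast matrix and mineralisation genes (rows) the left panel gives the summed width of assigned H3K9Ac regions in kb and the right panel the share of the gene body covered by H3K36me3 in %, with large points for undifferentiated and small points for differentiated cells. Alpl, Postn and Col12a1 show long shifts on the left with none on the right, and Ibsp and Phospho1 move from 0 to 86.5% and 61.1% on the right.

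The locus on chromosome 5 that holds Dmp1, Ibsp, Mepe and Spp1, acidic phosphoproteins of bone and dentine, shows these changes side by side, and it was chosen after its values were seen. Over 466.7 kb (chr5:104488130-104954838) H3K9Ac went from 8 regions covering 34.4 kb to 14 regions covering 77.3 kb, with 6 gained and 0 lost. The Dmp1 promoter had a gained region of 2.6 kb, and a second gained region of the same width lay 36.2 kb away. Mepe, a phosphoglycoprotein of osteocytes, had 2 gained regions within the gene. At Spp1 the promoter region widened to span -10.4 to 6.09 kb from the TSS, from -3.28 to 3.41 kb before. H4K5Ac covered 249.2 and 278.1 kb of the locus. RUNX2 had 12 peaks there before and 5 after, and C/EBPβ 15 and 10, while both whole lists were also shorter after differentiation. H3K36me3 covered Ibsp in differentiated cells and was at 0 over Dmp1 and Mepe in both states.

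**Figure D5:**
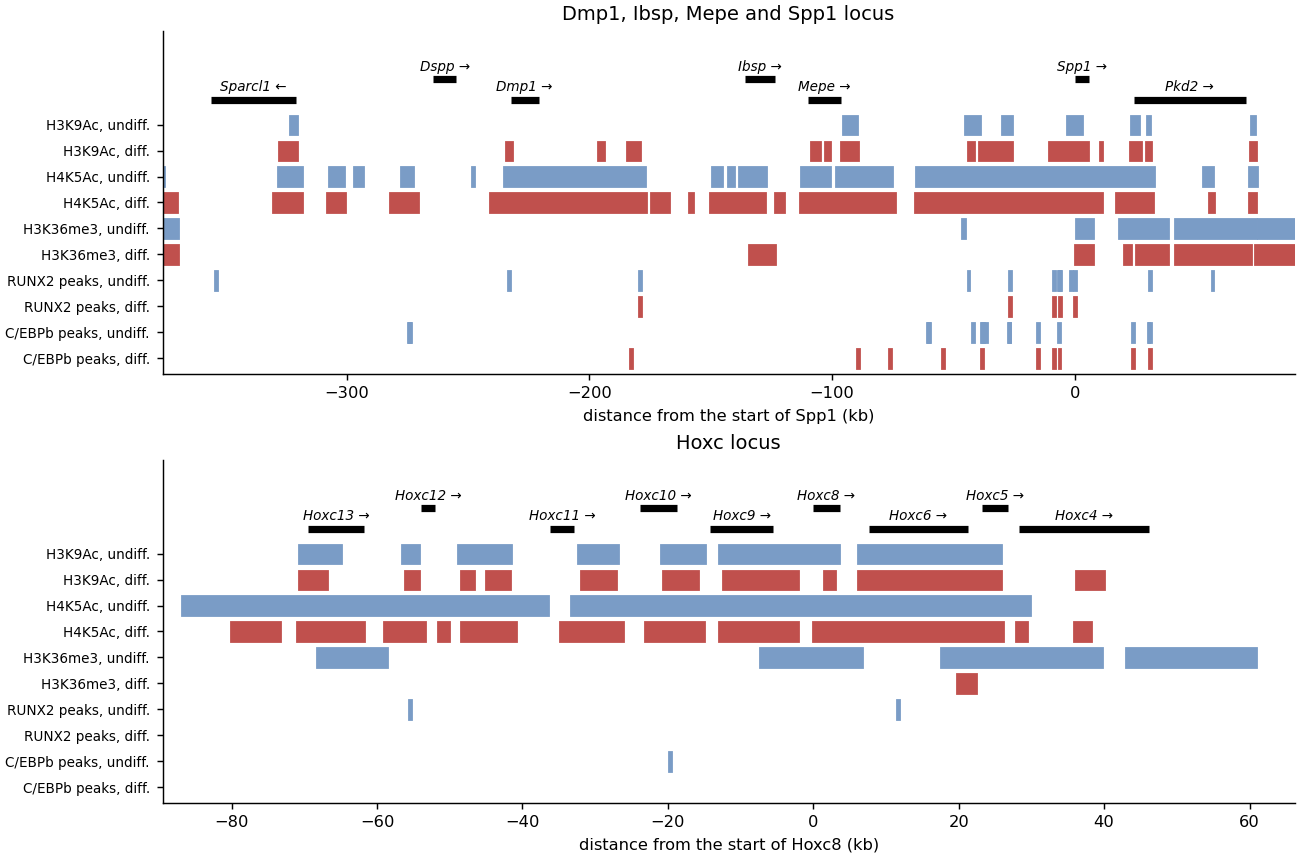
Boxes give H3K9Ac, H4K5Ac and H3K36me3 regions and RUNX2 and C/EBPβ peaks of each state along 2 loci, with distance in kb from the start of Spp1 (top) or Hoxc8 (bottom) on the x axis, and black bars are genes. At the top H3K9Ac has 8 boxes before and 14 after, with RUNX2 peaks going from 12 to 5, and at the bottom H3K36me3 covers 64.1 kb before and 2.84 kb after while H3K9Ac covers 64.4 and 57 kb. Peaks are drawn wider than their 201 bp.

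Of 26 osteoblast transcription factors, 24 had H3K9Ac at the promoter before and 26 after, and 8 had a gained region (30.8%, against 21% of all genes, and 2 with the equal-length list). The 2 gained promoters were those of Dlx3 and Tcf7. Dlx3 had a gained region of 11 kb at chr11:94978144-94989118, and H3K36me3 went from 0 to 26% of the gene. Tcf7, a partner of β-catenin in Wnt signalling, had 3 gained regions with 9.29 kb in all, and H3K36me3 went from 34.2% to 81.6%. Runx2 went from 43.2 to 60.9 kb with 2 gained regions and H3K36me3 from 78.8% to 91.7%, and Sp7, osterix, from 14.4 to 19.5 kb.

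Several regulators kept their H3K9Ac promoter region with H3K36me3 at 0 after differentiation. Junb, an AP-1 subunit, had 13.1 and 13.2 kb of H3K9Ac with H3K36me3 on 61.5% and 0% of the body. Id1 and Id2, inhibitors of basic helix-loop-helix factors, had 8.27 and 8.22 kb, and 9.61 and 10.2 kb, with H3K36me3 at 70.6% and 0% and at 55.5% and 0%. Cebpd, a C/EBP family member, had 49.8% and 0%. For Ccnb1, the mitotic cyclin B1, H3K9Ac was 4.28 and 4.85 kb with H3K36me3 at 94.1% and 0%, and for Col2a1, a collagen of cartilage, 3.86 and 8.87 kb with 66.1% and 0%. These genes were chosen after their values were seen. Msx2, a homeobox regulator of skull bone, kept its promoter region and lost a region of 1.25 kb beside it.

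In Wnt, BMP and TGFβ signalling 23 of 34 genes had a gained region (67.6%, against 21% of all genes), and 11 (32.4%) had one with the equal-length list. Among ligands, Wnt4 had 3 gained regions and none before, Bmp6 2, and Tgfb2 and Tgfb3 went from 12.3 to 47.1 kb and from 7.98 to 27.3 kb. Among receptors and their relatives, Tgfbr2 went from 17.9 to 39.4 kb, Tgfbr3, the betaglycan coreceptor, from 13.2 to 31.2 kb, and Lrp6, a Wnt coreceptor, from 4.84 to 17.3 kb. Smad3, which carries the TGFβ signal to the nucleus, went from 13.4 to 35.1 kb with 5 gained regions. Antagonists differed from each other. Wif1 and Chrd, which bind Wnt and BMP ligands, had gained promoter regions, and Dkk1 had 2 gained regions away from the promoter, whereas Sfrp1 went from 11.3 to 5.93 kb with 1 region lost and 1 gained. H3K36me3 on Wif1, Chrd, Dkk1, Wnt4 and Sfrp1 was 0 in both states.

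In matrix remodelling and crosslinking 12 of 21 genes had a gained region (57.1%, against 21% of all genes), and 2 (9.52%, against 5.28%) with the equal-length list. Loxl1, a lysyl oxidase of elastic fibres, went from 4.62 to 19.6 kb, and Plod2, the lysyl hydroxylase of collagen telopeptides, from 2.78 to 21.9 kb. In the vitamin D and parathyroid hormone list 4 of 10 genes had one, and 2 with the equal-length list. Pth1r, the parathyroid hormone receptor, went from 9.18 to 32.1 kb with H3K36me3 from 41.5% to 81%, Pthlh, its paracrine ligand, had a gained promoter region of 2.07 kb, and Rxra, the partner of the vitamin D receptor, went from 27 to 55.3 kb. Of 11 genes that couple osteoblasts to osteoclasts 5 had a gained region, 2 with the equal-length list, with a gained promoter at Il11, and Tnfsf11, which encodes RANKL, went from 2.3 to 3.5 kb of distal H3K9Ac with none at its promoter. Of 8 osteocyte genes 4 had a gained region, namely Dmp1, Mepe, Irx5 and Mef2c, and 3 did with the equal-length list, while Sost and Fgf23 had none in either state.

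Among housekeeping genes and markers of other lineages the share was above that of all genes in every list but the haematopoietic one. A gained region was assigned to 4 of 10 housekeeping genes (40%), 6 of 12 adipocyte genes (50%) and 5 of 9 endothelial genes (55.6%). The counts were 4 of 12 neural genes (33.3%), 3 of 12 chondrocyte genes and 3 of 12 muscle genes (25% each). For haematopoietic genes it was 1 of 12 (8.33%), against 21% of all genes. The adipocyte and endothelial shares were near those of the osteocyte list (50%) and of matrix remodelling and crosslinking (57.1%). With the equal-length list these counts were 0, 1, 1, 1, 1, 1 and 1, against 5.28% of all genes. Pparg, the adipocyte regulator, had 2 gained regions and Cebpa 3, Lep, leptin, had 2, and Slc2a4, an insulin-regulated glucose transporter, had a gained promoter region. Gained promoters were also found for Fcer1g, Vwf, Gfap and Syn1, markers of blood cells, endothelium, glia and neurons. The Slc2a4 promoter region had rank percentile 2.07, and H3K36me3 was 0 in both states for Slc2a4, Vwf and Gfap and 11.4% and 6.19% for Syn1. The Fcer1g region had rank percentile 56.2 and stayed in the equal-length list, and H3K36me3 covered 100% of the gene in both states. Of 25 cell cycle genes 5 had a gained region and all 25 promoters were marked in both states, as were all 16 of the secretory pathway. Among 18 enzymes and readers of H3K9 acetylation 17 promoters were marked in both states.

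The lost regions were few, narrow and mostly distal. H4K5Ac overlapped 141 of the 151 before and 116 after (93.4% and 76.8%), whereas H3K4me1 overlapped 94.7% and 96%. RUNX2 peaks went from 31.1% to 7.95% and C/EBPβ peaks from 39.1% to 12.6%. In kept undifferentiated regions these shares went from 36.7% to 17.1% and from 30.8% to 18.8%, as both factor lists were shorter after differentiation. At the 29 lost promoter regions H4K5Ac was present in 25 before and 11 after. The widest lost region was a 9.95-kb stretch within Dysf, and the best ranked, at 73.5, lay 64.5 kb from Cr2.

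Of the 35 genes with a lost promoter region, 30 lay at a lost region and 5 at a kept region that drew back. Tbx2, whose upstream sequence is printed above, lost a region of 2.49 kb, and H3K36me3 went from 78.5% to 0%. In the Tbx2 body and 10 kb around it, however, H3K9Ac went from 2.49 to 3.16 kb. Rspo3, a secreted enhancer of Wnt signalling, lost a region of 4.27 kb, the only H3K9Ac assigned to it. H3K36me3 of Hmgb3, a chromatin protein, went from 56.4% to 0%. Pcolce2, a procollagen processing enhancer, Kcnk10, a potassium channel, Spire2, an actin nucleator, and Cxcl5, a chemokine, were also among the 10 of best rank. Yaf2, a Polycomb-associated protein, had H3K36me3 at 90.7% and 89.5%. Of these 10, Rspo3, Tbx2, Kcnk10 and Pcolce2 also had no H4K5Ac at the promoter in differentiated cells.

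Hoxc8 and Hoxc9, positional regulators of the trunk skeleton, lost their call through the edges of kept regions. At Hoxc8 a region from -13 to 3.69 kb was replaced by regions from -12.4 to -1.91 kb and from 1.42 to 3.08 kb of the TSS, both just outside 1 kb. Over the Hoxc locus, 155.7 kb at chr15:102731534-102887274 and also chosen after its values were seen, H3K9Ac went from 64.4 to 57 kb and H4K5Ac from 113.7 to 90.3 kb. H3K36me3 went from 64.1 to 2.84 kb, so that Hoxc8 went from 100% to 0% and Hoxc9 from 20.2% to 0%. RUNX2 had 2 peaks and C/EBPβ 1 in the locus before and 0 after.

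Independently of the nearest TSS, 37 of 14005 genes (0.264%) had at least 2-fold less H3K9Ac in the body and 10 kb around it, against 2749 (19.6%) with at least 2-fold more. Among the 10 largest decreases in length there were Atoh8, a basic helix-loop-helix factor, from 31.5 to 23.5 kb, Aim1, from 11.4 to 4.4 kb, and Hoxc9, from 23.1 to 17 kb. Robo1, an axon guidance receptor, went from 5 kb to 0. Ltbp2, a latent TGFβ-binding protein of microfibrils, went from 20.5 to 15.6 kb and from 65% to 0% H3K36me3.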

How the data were processed

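The data were region and peak lists from chromatin immunoprecipitation and sequencing of MC3T3-E1 cells, 14 lists from 7 antibodies in 2 states. Per the submitters' processing notes Bowtie and HOMER were used with mm9. Tool versions and settings were not given in the sources used here. The series' design text states biological replicates, and per the region names in the files each deposited region was merged from at least 2 regions. Column 5 is the score deposited by the authors, whose meaning no label gives. It was used to rank regions within a list. The 2 input samples were not analysed here. One undifferentiated RUNX2 peak is 103 bp wide and the others 201 bp.

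Positions are 1-based on mm9, with the NCBIM37 sequence and the GENCODE vM1 annotation, which gave 22239 genes and 70022 start sites. A promoter region has its edge within 1 kb of a start site, and a region was assigned to the gene with the start site nearest its midpoint within 100 kb. H3K36me3 of a gene is the percent of its body covered. The differentiated H3K36me3 sample, on which all such values after differentiation rest, has a treatment label run together with the words for its state. It was taken as differentiated by title and source name. The CpG ratio is observed over expected. Analyses used Python 3.11.15, numpy 2.4.6 and scipy 1.17.1, and figures matplotlib 3.10.9. The overlap and nearest start site steps were tested on simulated region lists, and the motif step was not. The region classes, the 17 gene lists with 273 genes and the settings were chosen with earlier results of these data known. Named genes were list members with a changed promoter or most regions, the 10 genes with most gained regions, with the largest increase and decrease in length and with the best ranked gained and lost promoters, and the genes nearest the 5 widest and best ranked regions of each class. Members named for H3K36me3, the promoter genes ranked by gained region, the largest decreases in gene bodies, the 2 loci and the printed sequences were chosen after values were seen. Of the list symbols 4 were matched through RefSeq synonyms. Settings varied were the overlap rule, promoter width, merging, chromosomes, list length and gene assignment.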

Additional observations from a re-analysis of the deposited data

How the results depend on the processing

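Of 59 recalculations of the compared values 37 were called the same and 22 moved. A share was the same within its counting interval and a gene count within 1.5 times. The length and width ratios and the median rank were the same only if the printed value did not change. With the differentiated list reduced to its best ranked 14975 regions, 90% of undifferentiated regions were kept and 12% of differentiated ones gained, and the ratio of covered length was 1.31. In that list 73.2% of kept and 13.6% of gained regions were at a promoter. Of its gained regions 99.1% overlapped undifferentiated H4K5Ac, 99% H3K4me1, 0.834% differentiated H3K4me3 and 68.9% a factor peak, and their median rank percentile was 12.5. It gave 241 genes with a gained and 295 with a lost promoter region, so the balance of gained and lost promoters turned, and 1175 with a gained region assigned. With the best ranked 50% of each list the kept share was 99.5%, the gained share 37.6% and the length ratio 1.77. With promoters within 5 kb 71.9% of kept, 19.7% of gained and 27.8% of lost regions were at a promoter, and within 250 bp 9.26% of gained regions were. With an overlap of 50% of the shorter region the median rank percentile of gained regions was 20.8. In gene bodies with 10 kb around them 37 genes were at least 2-fold lower, a setting added after seeing the data, as were the equal-length counts of the gene lists. The median width ratio stayed at 1.16 under each of its alternatives, which left nearly all region edges unchanged and so do not test the widening. No paired analysis was possible because each state has 1 list. Leaving out replicates was not possible for the same reason. Read depth is unknown, and its part in the longer differentiated list was not tested.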
